A study of Homo sapiens with 2 samples.

Results

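Immediate early genes are the genes that a cell transcribes within minutes of a growth factor, a stress or mere handling, before any new protein is made. The 32 members taken here were the windows of the deposited table that carry the names of AP-1 subunits (FOS and JUN families), EGR factors, IER genes, ATF3, dual-specificity phosphatases, ZFP36 proteins, NR4A receptors, Krüppel-like factors, BTG genes and SRF. Each of the 32 names matched 1 of the 36814 windows. A window spanned 6000 bases, 3000 to either side of an annotated gene start on hg38.

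The assay was PRO-seq (precision run-on sequencing), applied to K562, an established chronic myelogenous leukaemia line driven by the BCR-ABL kinase. Permeabilised cells are given biotin-labelled nucleotides (here for 5 min at 30 °C), engaged polymerases add them to growing transcripts, and the tagged RNA is pulled down and sequenced. There was 1 library of untreated cells, with 2136291 reads, and 1 of cells kept for 1 h in 0.1% DMSO, a drug solvent, with 4154920 reads. Neither treatment has a second library, so differences have no replicate check and no test was run. As these are bulk samples, fewer cells of a type and less RNA per cell cannot be told apart. All intervals are exact 95% intervals, except where a Wald interval is named, and cover counting error only. As reads carry no molecular identifiers, copies of 1 molecule may be counted as separate reads, and the intervals may be too narrow.

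In textbook terms, a growth signal runs through Ras to the kinase ERK, and stress through p38 and JNK. These kinases phosphorylate factors already bound at the promoters, such as ELK1 beside SRF on the CArG boxes of serum response elements and CREB on cAMP response elements (CREs), and paused polymerase is released. FOS and JUN proteins pair to form the factor AP-1, EGR proteins bind GC-rich sites, and dual-specificity phosphatases and ZFP36 proteins end the response by removing phosphate from MAP kinases and by speeding mRNA decay.

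The promoters of the members were read from RefSeq (GRCh38.p14), which gives 250 bases before and 50 after a start. Of the 32 members 25 had an entry, and in 24 a RefSeq start lay inside the window counted here. Entries were missing for FOSL1, EGR3, IER3, DUSP4, DUSP5, NR4A2 and KLF10. Shown first are the bases upstream of the start for the 4 members with enough reads for a ratio that hold a CArG box or a full CRE, with these motifs and the TATA motif TATAAA in capitals, 5′ to 3′ on the gene's strand. JUND (chr19:18281623-18281872, minus strand) holds a CRE, EGR1 (chr5:138465229-138465478, plus strand) 2 CArG boxes, DUSP1 (chr5:172771196-172771445, minus strand) a CRE and a TATA motif, and SRF itself (chr6:43171019-43171268, plus strand) 2 CArG boxes.
JUND: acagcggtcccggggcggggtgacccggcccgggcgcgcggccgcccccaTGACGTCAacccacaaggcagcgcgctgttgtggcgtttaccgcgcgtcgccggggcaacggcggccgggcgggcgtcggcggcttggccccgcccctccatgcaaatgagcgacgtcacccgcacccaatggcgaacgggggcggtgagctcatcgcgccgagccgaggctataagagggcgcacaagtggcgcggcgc
EGR1: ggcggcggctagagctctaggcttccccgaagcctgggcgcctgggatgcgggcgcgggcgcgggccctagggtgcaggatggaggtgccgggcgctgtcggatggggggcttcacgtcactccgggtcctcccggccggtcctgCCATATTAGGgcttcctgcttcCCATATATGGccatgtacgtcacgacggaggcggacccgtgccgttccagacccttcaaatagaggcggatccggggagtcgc
DUSP1: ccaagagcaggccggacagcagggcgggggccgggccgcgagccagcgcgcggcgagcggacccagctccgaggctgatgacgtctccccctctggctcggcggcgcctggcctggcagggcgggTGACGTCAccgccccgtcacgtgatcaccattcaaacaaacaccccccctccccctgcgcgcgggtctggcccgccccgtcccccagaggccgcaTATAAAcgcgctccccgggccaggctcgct
SRF: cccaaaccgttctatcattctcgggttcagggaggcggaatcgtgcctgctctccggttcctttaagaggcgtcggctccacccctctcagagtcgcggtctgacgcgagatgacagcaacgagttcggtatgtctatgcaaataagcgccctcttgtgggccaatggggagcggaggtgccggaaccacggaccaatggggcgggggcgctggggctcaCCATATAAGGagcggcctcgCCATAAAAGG

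The CArG boxes of EGR1 began 105 and 83 bases before the start, those of SRF 30 and 10 bases, and the CREs of JUND and DUSP1 200 and 125 bases. In the 24 promoters of 300 bases, searched on both strands, 2 (8.33%) held a CArG box and 2 (8.33%) the CRE TGACGTCA, against 1.29% and 1.85% of the 35116 promoters in the RefSeq table. The GC box GGGCGG was held by 18 of 24 (45.0% of all promoters), CCAAT by 11 (34.6%), the ETS motif GGAAGT by 9 (22.8%), TATAAA by 6 (11.5%) and the AP-1 site TGANTCA by 1, FOSL2 (7.71%). Matches of different motifs overlapped in 1 of these promoters, that of IER2 (GC box and ETS motif).

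In 5 members TATAAA began 20 to 40 bases before the start, as it did in 2.87% of all promoters; this distance was chosen after the matches were seen. Beside DUSP1 these were FOS (chr14:75278768-75278827, plus strand), FOSB (chr19:45467936-45467995, plus strand), JUNB (chr19:12791426-12791485, plus strand) and BTG1 (chr12:92145847-92145906, minus strand). The last 60 bases before their starts are shown, with the motif in capitals.
FOS: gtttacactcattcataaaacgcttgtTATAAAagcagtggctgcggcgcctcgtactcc
FOSB: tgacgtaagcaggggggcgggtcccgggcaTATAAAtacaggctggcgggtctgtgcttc
JUNB: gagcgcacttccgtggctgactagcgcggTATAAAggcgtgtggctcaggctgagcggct
BTG1: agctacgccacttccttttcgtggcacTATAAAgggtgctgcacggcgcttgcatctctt

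How much of a member could be counted differed widely. Windows whose every base was also covered by another window numbered 1154, and together they held 0 reads, so reads in shared bases were left out of the counts. Of the members 15 had all 6000 bases to themselves, 18 at least 5000 (called long windows here), and 12 under 2000. IER2, a gene of the early serum response, and DUSP6, a phosphatase specific to ERK, had 0 unshared bases, and their 0 reads say nothing of their transcription. The windows that overlap IER2 and DUSP6 all lie on the opposite strand. The sources used here do not state whether the counting used strand. The 1154 windows above were covered by windows of either strand and held 0 reads, so the counts did not separate strands. Each count thus sums both strands, and reads from a member and from an antisense gene cannot be told apart.

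**Figure D1:**
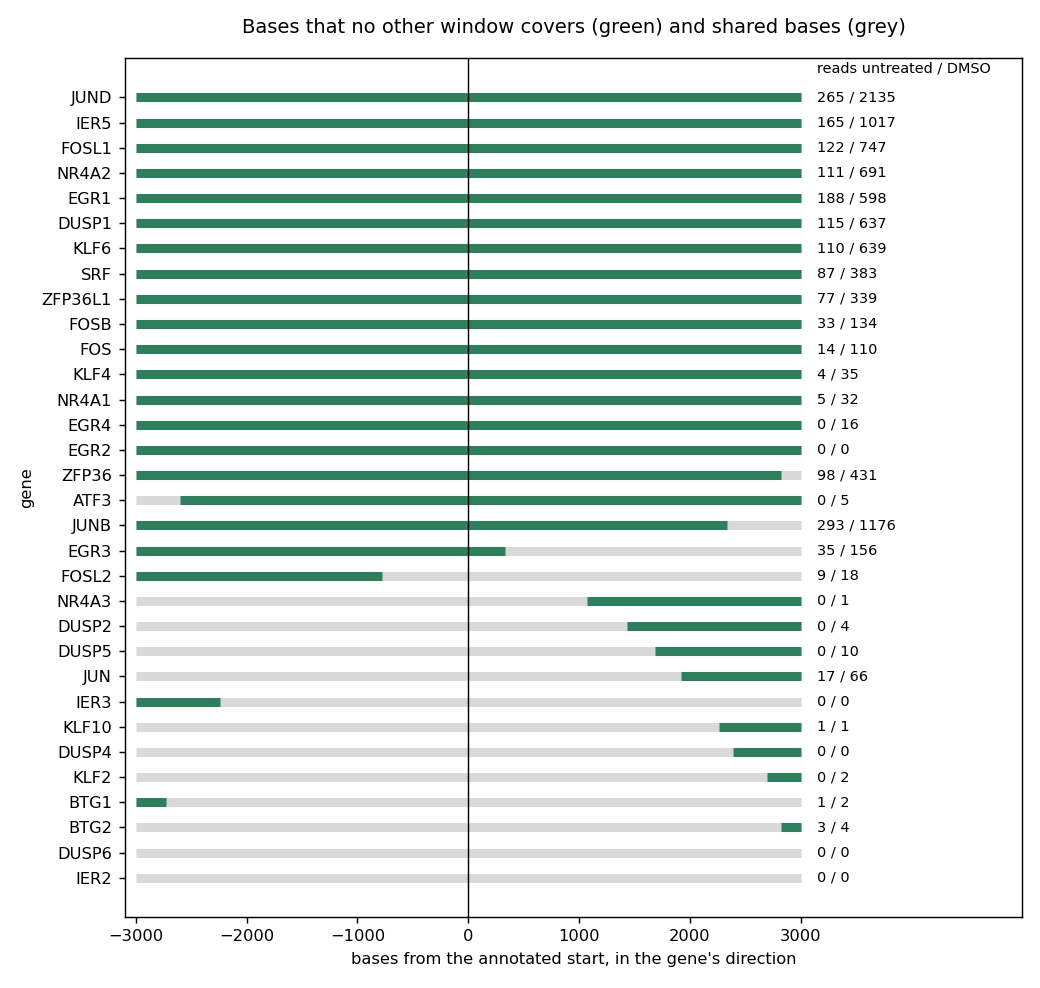
Position of the bases that no other window covers (green) in each of the 32 windows, in bases from the annotated start in the gene's direction, with the untreated and DMSO reads at the right. The 12 windows with under 2000 green bases held at most 17 untreated and 66 DMSO reads, both at JUN.

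Levels are given in CPM, the count divided by all reads of its library, of which 1 read made 0.468 in the untreated and 0.241 in the DMSO library. At least 1 CPM in both libraries was found in 18 of the 32 members, against 34.7% of all windows. Among long windows it was 15 of 18 members against 42.7% of windows. The 3 long windows below this level were EGR2, EGR4 and ATF3. The members as a group held 1753 of the 525322 untreated reads outside ribosomal RNA and mitochondrial windows (0.334%, interval 0.318 to 0.350). In the DMSO library they held 9389 of 2249790 (0.417%, interval 0.409 to 0.426), 1.25 times the untreated share. Without JUND the shares differed by 1.14 times. All reads outside ribosomal and mitochondrial windows gave 4.28 DMSO reads per untreated read, and the members together 5.36. The median window past the floor defined below gave 4.72, so its share was higher with DMSO too.

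**Figure D2:**
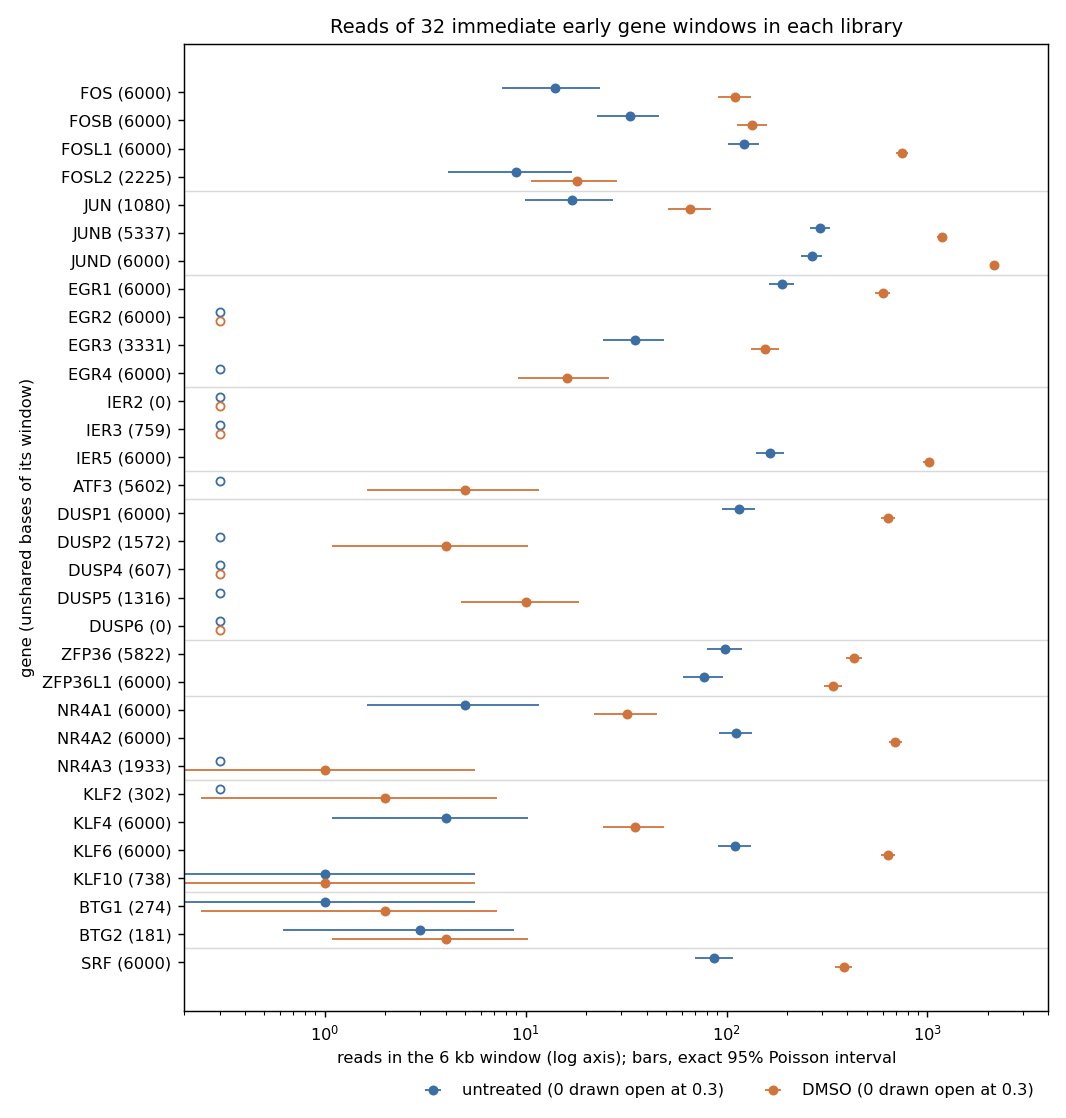
Reads in the 6000-base window of each member in the untreated (blue) and DMSO (orange) library on a log axis, with exact 95% Poisson intervals; counts of 0 are open circles drawn at 0.3, and unshared bases stand in brackets. JUNB and JUND led the untreated library with 293 and 265 reads, and JUND the DMSO library with 2135.

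The JUN family gave the highest levels. JUND (chromosome 19, 18278623 to 18284622), the JUN protein that most cells make without a stimulus, had 265 untreated and 2135 DMSO reads. JUNB (chromosome 19, 12788486 to 12794485), which can oppose JUN in AP-1, had 293 and 1176 reads. JUND and JUNB lay above 99.5% and 99.6% of the 23307 long windows outside ribosomal and mitochondrial windows in the untreated library, and above 99.9% and 99.5% with DMSO. The order of the 2 genes differed between the libraries. JUND had 0.904 times the reads of JUNB untreated (interval 0.763 to 1.07) and 1.82 times with DMSO (interval 1.69 to 1.95). JUN itself (chromosome 1, 58781048 to 58787047) had 17 and 66 reads, all from the 1080 unshared bases between 1920 and 2999 bases past its start. Per kb of unshared bases JUN stood at 7.37 CPM untreated and 14.7 CPM with DMSO, JUNB at 25.7 and 53.0, and JUND at 20.7 and 85.6. The JUN stretch leaves out the start, where paused polymerase gathers, so its density is not that of the same part of the gene.

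In the FOS family FOSL1, which encodes FRA1, stood above FOS and FOSB in both libraries. FOSL1 (chromosome 11, 65897574 to 65903573) had 122 untreated and 747 DMSO reads, FOSB (chromosome 19, 45464995 to 45470994) 33 and 134, and FOS (chromosome 14, 75275826 to 75281825) 14 and 110. All 3 windows are wholly unshared, so their reads compare directly per length. FOSL1 had 8.71 times the reads of FOS untreated (interval 5.00 to 16.4) and 6.79 times with DMSO (interval 5.55 to 8.37). FOSL1 exceeded FOSB 3.70 times (interval 2.5 to 5.61) and 5.57 times (interval 4.63 to 6.75). FOSB exceeded FOS untreated, 2.36 times (interval 1.23 to 4.77), while with DMSO the interval of 0.940 to 1.58 held equality. FOSL2, which encodes FRA2, had 9 and 18 reads in 2225 bases that all lie upstream of its start, and its window was otherwise shared.

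EGR1, a growth-response factor, and SRF are known targets of the CArG box. EGR1 (chromosome 5, 138462479 to 138468478) had 188 untreated and 598 DMSO reads, which gave it rank 3 of the 17 long member windows with reads in the untreated library and rank 8 with DMSO. EGR3 had 35 and 156 reads in 3331 bases, 331 of them from its start on. EGR4 had 0 and 16 reads in a wholly unshared window, and EGR2 0 in both. The window of EGR2 does not hold a RefSeq start, the nearest of which lies 100733 bases from the annotated start used, so its 0 reads do not measure the start that RefSeq lists. SRF, the factor that binds CArG boxes, had 87 and 383 reads.

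Of the IER genes, which encode immediate early response proteins, 1 could be read well. IER5 (chromosome 1, 181085700 to 181091699) had 165 and 1017 reads, above 98.6% and 99.3% of the long windows. IER3 had 0 reads in 759 bases upstream of its start, and IER2 had no base of its own. The opposite-strand window AC011446.2, which overlaps IER2, had 57 and 170 reads in 1280 unshared bases. ATF3, a stress-induced partner of JUN, had 0 and 5 reads although 5602 bases of its window were unshared; the exact interval of its 0 untreated reads reached 1.73 CPM.

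Among the feedback genes DUSP1 and both ZFP36 genes were well read. DUSP1, a nuclear phosphatase of p38, JNK and ERK, had 115 and 637 reads (chromosome 5, 172768196 to 172774195). ZFP36, which encodes tristetraprolin, had 98 and 431 reads, and ZFP36L1 77 and 339. The other 4 phosphatases had at most 1572 unshared bases, none including the start: DUSP5 had 0 and 10 reads, DUSP2 0 and 4, and DUSP4 and DUSP6 0 in both. The antiproliferative genes BTG1 and BTG2 had 274 and 181 unshared bases, with 1 and 2 reads for BTG1 and 3 and 4 for BTG2.

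The NR4A receptors and Krüppel-like factors each had 1 well-read member among wholly unshared windows. NR4A2 (chromosome 2, 156339349 to 156345348), an orphan nuclear receptor also known as NURR1, had 111 and 691 reads, and its relative NR4A1 had 5 and 32. NR4A3 had 0 and 1 read in 1933 bases past its start. KLF6, a widely expressed factor, had 110 and 639 reads (chromosome 10, 3782282 to 3788281), and KLF4, known from epithelia and pluripotent cells, 4 and 35. KLF2 had 0 and 2 reads in 302 bases, and KLF10 had 1 and 1 in 738.

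Ordered by mean CPM, the long member windows ran JUND, JUNB, IER5, FOSL1, EGR1, NR4A2, DUSP1, KLF6, ZFP36, SRF, ZFP36L1, FOSB, FOS, KLF4, NR4A1, EGR4 and ATF3. Of these neighbours, NR4A2, DUSP1 and KLF6 in turn did not differ beyond counting error in either library, nor did ZFP36, SRF and ZFP36L1 in turn, nor KLF4 and NR4A1. KLF6 and ZFP36 differed with DMSO (1.48 times, interval 1.31 to 1.68) and did not beyond counting error in untreated cells (1.12 times, interval 0.847 to 1.49). EGR1 stood above FOSL1 and NR4A2 in untreated cells and below both with DMSO, each beyond counting error.

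Whether DMSO alone moves early response genes can be read only as a comparison of 2 libraries. Ratios were formed for windows past a floor of 5 CPM on average and 100 reads in both libraries together, which 14 members passed, against 17.9% of all windows; 13 of them are long windows (24.4% of long windows passed), and the other, EGR3, is a shorter one (6.72% of those passed). Ribosomal RNA took 71.5% of untreated reads and 42.2% with DMSO. Therefore each ratio is given relative to the median of the 6591 windows past the floor, which held 4.72 DMSO reads per untreated read. On this log2 scale 0 of 14 members were at least 2-fold higher, against 7.04% of windows, and 0 at least 2-fold lower, against 7.97%. The members ran from -0.57 to 0.77 with a median of 0.07, while the median of all windows is 0 by construction and the middle 95% of windows ran from -1.48 to 1.41. The members that passed did so on their summed reads, and the other 18 have no place in these counts. A window with few untreated reads, such as FOS with 14, passes only with many DMSO reads. Its ratio then lies above the median window by construction, for list genes and background windows too.

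**Figure D3:**
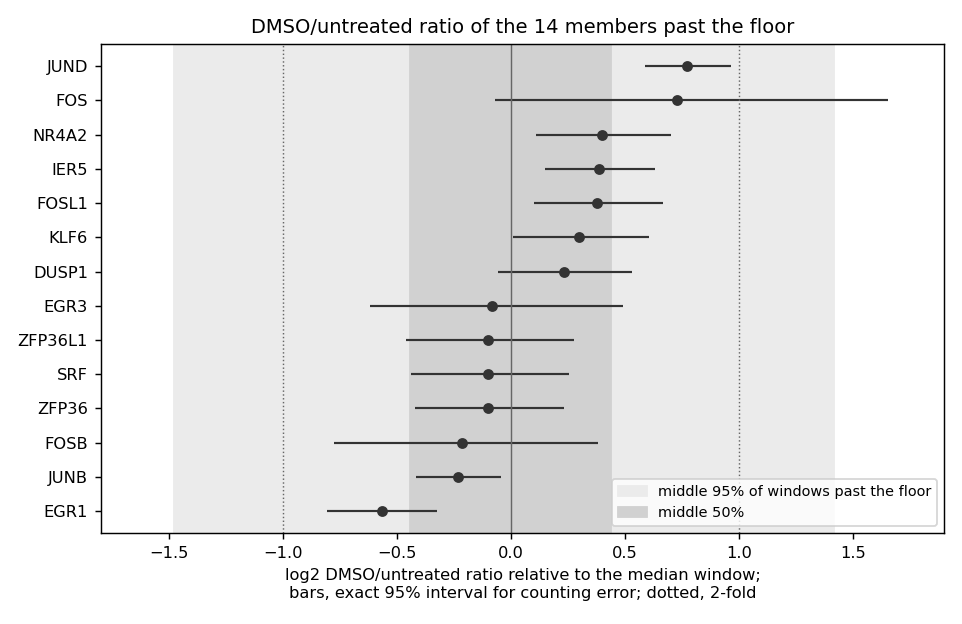
Log2 DMSO/untreated ratio of the 14 members past the floor relative to the median window, with exact 95% counting intervals; shading marks the middle 50% and middle 95% of the 6591 windows past the floor, and dotted lines 2-fold. All 14 points lie inside the dotted lines, from EGR1 at -0.57 to JUND at 0.77.

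JUND was the highest member at 0.77 (interval 0.59 to 0.96), above 87.5% of the windows past the floor. FOS stood at 0.73, but with 14 untreated reads its interval ran from -0.07 to 1.65. NR4A2 stood at 0.40 (interval 0.11 to 0.70), IER5 at 0.39 (0.15 to 0.63), FOSL1 at 0.38 (0.10 to 0.66) and KLF6 at 0.30 (0.01 to 0.61). DUSP1 stood at 0.23 (interval -0.06 to 0.53). Thus 7 members lay above the median window, and for 5 of them the interval lay wholly above it, as for 22.5% of all windows past the floor. The members past the floor had medians of 110.5 untreated and 617.5 DMSO reads, against 45 and 205 for all windows past it. More reads give narrower intervals, so the 2 shares do not compare directly.

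EGR1 was the lowest member at -0.57 (interval -0.81 to -0.32), above 20.3% of the windows, and JUNB stood at -0.23 (interval -0.42 to -0.04). These 2 of 14 had intervals wholly below the median window, as had 24.5% of all windows past the floor, which had fewer reads. FOSB at -0.22, ZFP36, ZFP36L1 and SRF each at -0.10 and EGR3 at -0.08 had intervals that held the median window. Below the floor, the ratio of FOSL2 was -1.21 (interval -2.47 to 0.10) and that of JUN -0.28 (interval -1.07 to 0.58), with 27 and 83 reads in all. Also below the floor, KLF4 stood at 0.85 (interval -0.59 to 2.85) and NR4A1 at 0.42 (interval -0.93 to 2.16), with 39 and 37 reads in all. All 4 intervals held the median window.

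Of the 6 pairs of members past the floor within a family, 1 differed beyond counting error: JUND stood 1.00 above JUNB (Wald interval 0.74 to 1.27). The FOS and FOSB ratios differed by 0.94 (Wald interval -0.02 to 1.9) and those of FOSL1 and FOSB by 0.59 (Wald interval -0.02 to 1.2), neither beyond counting error. ZFP36L1 and ZFP36 differed by 0.0014 (Wald interval -0.47 to 0.48). Beyond counting error, the windows past the floor varied by 35.3% (coefficient of variation) between the libraries. This includes any effect of DMSO, and the counting intervals leave it out. In the bases searched, JUND at 0.77 and DUSP1 at 0.23 held a full CRE, and EGR1 at -0.57 and SRF at -0.10 CArG boxes. These members are too few to compare. FOSL1, EGR3 and NR4A2 had no promoter entry, and bases further upstream were not searched.

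The sign of a member depends on the centre chosen. On the TMM scale of edgeR with no centring, which puts the median window at 0.31, JUND at 1.08 and FOS at 1.03 passed 2-fold (2 of 14, against 15.0% of windows) and 0 members were 2-fold lower (3.37%). With library totals and no centring 13 of 14 were at least 2-fold higher, against 66.0% of windows, EGR1 at 0.71 being the exception, and 0 were lower (0.47%). At 1.5-fold relative to the median window, JUND and FOS were higher (2 of 14, against 18.6% of windows) and 0 were lower (19.6%). With 14 untreated reads, FOS passed the floor through its 110 DMSO reads. Its place in both counts of 2 is thus not independent of the floor.

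Several other settings with centring kept both counts of members past 2-fold at 0. With a floor of 20 CPM and 400 reads, which 11 members passed, the background was 4.05% higher and 6.21% lower. With a prior count of 2 it was 6.65% and 7.69%, and with library totals 6.98% and 7.98%. The change to library totals is no independent check, since centring cancels the scale factor except for the prior count. Among windows that share no base, 11 members and 5396 windows in all, the background was 6.78% and 8.04%. A floor of 1 CPM and 20 reads admitted 18 members, of which 0 were higher (12.7% of windows) and 1, FOSL2, was lower (12.2%). With any read in either library, 5 of 27 were higher (27.7%) and 4 lower (25.2%). The lower floor put SRF, ZFP36, ZFP36L1 and EGR3 just above the median window, and admitting any read put DUSP1, KLF6, IER5 and FOSL1 below it.

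Most genes of the upstream pathway had reads. Of 23 genes of the Ras-ERK cascade 18 reached 1 CPM in both libraries (34.7% of all windows did) and 17 passed the floor (17.9%). Of these 17, 0 were at least 2-fold higher (7.04% of windows) and 0 lower (7.97%). Above the median window lay 14 (list median 0.27). The ERK-activated kinase gene RPS6KA1 had 37 untreated and 300 DMSO reads (0.78), and the Ras exchange factor gene SOS1 had 60 and 204 (-0.47). Of 13 stress MAP kinase genes 7 passed the floor with a median of 0.82, and 3 were at least 2-fold higher (7.04% of windows), 0 lower (7.97%): MAPKAPK2 (29 and 422 reads, 1.62), MAP3K1 (21 and 250, 1.33) and MAPK8, which encodes JNK1 (38 and 384, 1.09). MAP3K7, which encodes TAK1, was the lowest of them at -0.41.

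Of 14 partners of SRF and CREB 10 passed the floor (17.9% of all windows did), with a median of 0.33. Of these 10, 0 were at least 2-fold higher (7.04% of windows) and 0 lower (7.97%). ELK4, an SRF cofactor, stood at 0.88, the CREB relative ATF1 with 152 and 698 reads at -0.04, and the CREB coactivator gene CRTC1 at -0.12. Of 12 cytoskeletal SRF targets 2 passed, TAGLN2 at 0.64 and CNN2 at -0.09. Of 9 further AP-1 partners 0 passed and 3 reached 1 CPM in both libraries (34.7% of all windows did). BATF2 had the highest mean CPM of these 9, with 15 and 28 reads.

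A further list held 32 other rapidly induced genes. Of these 18 passed the floor (17.9% of all windows did), with a median of 0.23. Of the 18, 4 were at least 2-fold higher (7.04% of windows) and 3 at least 2-fold lower (7.97%). The highest were the small MAF gene MAFK with 4 and 237 reads (3.58, interval 2.28 to 5.54), RHOB at 1.31, the stress gene GADD45B at 1.24 and PLK3 at 1.04. With few untreated reads, MAFK and RHOB (15 and 177 reads) passed the floor through their DMSO reads. Their places among the 4 are thus not independent of the floor. The lowest were the inhibitors of differentiation ID3 with 152 and 218 reads (-1.71) and ID1 with 460 and 690 (-1.65), and the kinase gene PIM1 with 667 and 1348 (-1.22). RHOB, GADD45B, PLK3 and ID1, like MAP3K1 and MAPK8 above, were named after their values were seen.

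The last list held paralogues and binding partners of the members. Of 19 listed, 10 passed the floor (17.9% of all windows did) with a median of 0.87, and 9 lay above the median window. Of the 10, 5 were at least 2-fold higher (7.04% of windows) and 0 lower (7.97%). The 5 were NAB2, which encodes a repressor of EGR proteins, with 7 and 134 reads in 979 unshared bases (1.99), DUSP16 (1.19), KLF11 (1.16), KLF13 (1.05) and DUSP7 (1.00), the last 4 named after their values were seen. With few untreated reads, NAB2, DUSP16 (12 and 131 reads) and KLF13 (14 and 138) passed the floor through their DMSO reads. Their places among the 5 are thus not independent of the floor. TOB2, of the BTG family, had the most reads, 124 and 972 (0.73), and DUSP14 stood lowest at -0.55.

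**Figure D4:**
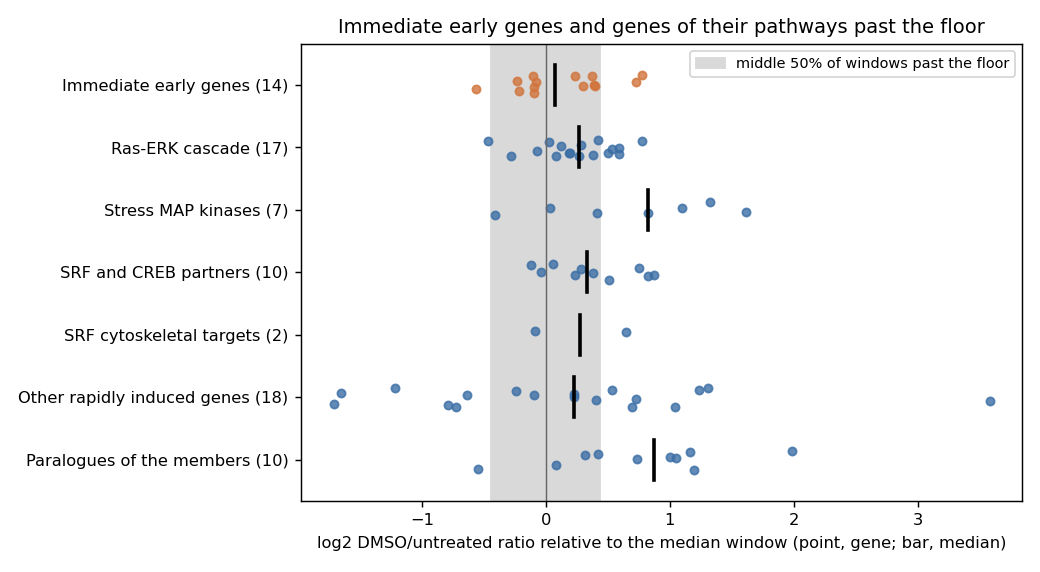
Log2 DMSO/untreated ratio relative to the median window for the members (orange) and for genes of 6 related lists (blue) past the floor; bars are list medians, shading is the middle 50% of all windows past the floor, and brackets give the number of genes. The members span -0.57 to 0.77, while the other rapidly induced genes span -1.71 to 3.58. The gene at 3.58, MAFK, had 4 untreated reads and passed the floor through its 237 DMSO reads.

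The cell line's identity was read from marker genes. Of 10 erythroid markers 9 reached 1 CPM in both libraries (34.7% of all windows did), led by TFRC with 432 and 1179 reads. Relative to the median window 0 of the 6 erythroid markers past the floor lay above it, with a median of -0.49, and 1, HBG1, was at least 2-fold lower (7.97% of windows) at -1.15. HBG1 was named after its value was seen, and its count is uncertain because HBG2 is a near-identical copy. A level of at least 1 CPM in each library was found for 3 of 6 lymphoid markers, against 34.7% of all windows. For the epithelial, fibroblast and hepatocyte markers the count was 2 of 6. Of the 14 neural and glial markers 0 reached 1 CPM in both libraries. They held 2 reads in all in the untreated library, where 12 were at 0, and 959 with DMSO, of which GFAP had 514. MT3, NTRK2 and SYT1 had 188, 119 and 80 of these, and every other marker at most 17. MT3 and SYT1 were named after their values were seen. EGR4, known from neural tissue, had 16 DMSO reads against 0 untreated, too few for a ratio. Set against the 3 untreated reads that a count of 0 allows, EGR4 would stand only 1.13-fold above the median window. The part of these erythroid and neural values in the members' ratios was not tested.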

How the data were processed

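Per the submitters' processing notes, reads were aligned with Bowtie2 2.3.5 to hg38 and counted with featureCounts 2.0.1. The deposited count is the number of reads per 6000-base window, not normalized. The deposited TPM values equalled the count divided by the library total (CPM) within 1e-06 and were not used further, nor was the authors' mean TPM. How reads in shared bases were handled, and that strands were not separated, were read from the counts.

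From the counts, CPM, TMM factors (edgeR 4.0.16, R 4.3.3) and log2 ratios were computed, with a prior count of 0.5 reads shared out by library size. Ratios were centred on the median window past the floor. Count intervals are exact Poisson intervals, and ratio and share intervals exact Clopper-Pearson intervals (SciPy 1.17.1). The procedure was tested on simulated data. The 4 ribosomal windows are those of the chromosome 21 repeats with over 100000 reads.

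The labels put 1 library in each treatment. The members, lists, motifs and tests were chosen with earlier results of these data known. Every member was named, and from each list the gene of highest mean CPM and those of highest and lowest ratio, of which some are not reported here; promoters were shown for members past the floor with a CArG box or CRE. Alternatives covered scaling (DESeq2 1.42.0 among them), floor, prior count, threshold, centring and windows without overlap.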

Additional observations from a re-analysis of the deposited data

How the results depend on the processing

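No paired analysis was possible because there is a single library on either side, which also leaves no replicate to omit. The count of members at least 2-fold higher (0) became 5 of 27 with any read in either library, 2 on the TMM scale without centring, 2 at 1.5-fold and 13 with library totals without centring. The count at least 2-fold lower (0) became 1 (FOSL2) at a floor of 1 CPM and 20 reads and 4 with any read. Both stayed at 0 with a floor of 20 CPM and 400 reads, a prior count of 2, windows without overlap and the 4 other scalings with centring. Centring cancels the scale factor except for the prior count, so these scalings were bound to give nearly the same counts. The median member ratio (0.07) was 1.35 with library totals without centring; under the other settings it ran from -0.09 to 0.38. The members' share of reads (0.334% untreated, 0.417% with DMSO) was 0.0821% and 0.226% of all reads, 0.379% and 0.466% among windows past the floor, and 0.283% and 0.323% without JUND. Members at 1 CPM in both libraries (18 of 32, background 34.7%) were 13 of 15 among windows without overlap (42.1%), 15 of 18 among windows with at least 5000 unshared bases (42.7%), 15 of 32 at 5 CPM (23.2%), 19 of 32 at 3 reads (35.5%) and 19 of 32 with CPM of reads outside ribosomal and mitochondrial windows (44.1%). Library totals without centring and windows with at least 5000 unshared bases were chosen after the data were seen. Floors and centring change these values by construction; the cause of other differences was not tested. Depth limits the members with under 20 untreated reads, such as FOS and JUN.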
